A study of Mus musculus with 6 samples.

Results

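In this study 9 genes were followed, chosen by their symbol because they encode parts or regulators of the smooth muscle contractile apparatus. They were Acta2, Tagln, Myh11, Myocd, Cnn1, Mylk, Lmod1, Synpo2 and Palld, 9 of the 30406 genes listed in all 6 libraries. They were read in mural, fibrogenic and other stromal nuclei of mouse tibial periosteum, before injury and after fracture. The question was how near the injury-induced fibrogenic cells (IIFCs) of the callus come to the contractile profile of mural cells or of myofibroblasts.

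Smooth muscle cells contract when myosin light chain kinase, encoded by Mylk, phosphorylates myosin II, whose heavy chain in these cells is Myh11, so that it pulls on filaments of smooth muscle actin, Acta2. Myocardin, Myocd, is a coactivator of serum response factor (SRF) that switches on many of these genes, and SRF binds a short DNA element called the CArG box in their promoters. Pericytes and vascular smooth muscle cells, together called mural cells, wrap blood vessels. Myofibroblasts are fibroblasts of healing wounds that take up smooth muscle actin into stress fibres and lay down collagen, usually without the late smooth muscle genes such as Myh11. Palladin, Palld, is an actin-bundling protein of stress fibres that many non-muscle cells also use.

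The data were single-nucleus RNA sequencing (snRNAseq) of wild-type C57BL6 mice (C57BL/6ScNj in the methods of the study), 12 weeks old, males and females mixed. There were 2 libraries of uninjured tibial periosteum, 2 of day 3, 1 of day 5 and 1 of day 7 after an open, non-stabilized tibial fracture, where the periosteum was taken with the hematoma. Every library pooled several mice, so that p-values measure the spread between pools, and all groups shared this genotype. Sorting was for nuclei only, so no surface marker chose the cells. Values are CPM: the unique molecular identifiers (UMIs, 1 per captured RNA molecule) of a gene, summed over the nuclei of a population in a library and scaled to that population's UMIs of all genes. Their intervals are exact 95% Poisson intervals, which cover counting error only.

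Libraries held 655 to 4712 barcodes and 1499281 to 29796296 UMIs. Of 13551 barcodes, 8067 passed the filters and 6296 were left once clusters of skeletal muscle origin were set aside. Clusters were named from marker genes that did not include the 9 genes or, the skeletal muscle list aside, any gene of the lists used below. The markers of skeletal muscle shared Neb, Ckm, Acta1 and Myh4 with that list, and Neb also helped to choose the clusters set aside. The 686 nuclei called fibrogenic-like (Postn, Aspn, Col3a1, Col5a1, Col8a1) were spread as 6 and 5 nuclei in uninjured periosteum, 37 and 79 (day 3), 362 (day 5) and 197 (day 7). The 239 mural-like nuclei (Rgs5, Notch3, Abcc9, Pdgfrb and others) were 59 and 64 before injury, 2 and 9 (day 3), 73 (day 5) and 32 (day 7). The 2 nuclei of day 3 replicate 1 held no UMI of any of the 8 mural markers, so they bear their name without support. They enter no comparison, but are counted among the 239 nuclei, in the pooled shares and in the mural subclusters. Libraries shared at most 2 barcodes.

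Promoters are shown for 3 of the genes: Acta2, the usual myofibroblast marker; Lmod1, a thin filament protein of smooth muscle whose levels tracked Acta2 most closely; and Palld, whose levels went another way. The RefSeq promoter table of GRCm38.p6 matched 6 of the 9 genes. Each run is the 250 bases before the RefSeq start, 5′ to 3′ on the strand of the gene, at chr19:34255374-34255623 (minus strand) for Acta2, chr1:135324563-135324812 (plus strand) for Lmod1 and chr8:61902708-61902957 (minus strand) for the most upstream of 3 Palld starts. Capitals mark CArG boxes with 1 G or C among their middle bases, and the 6-base element CATTCC or its reverse complement GGAATG, the core bound by TEAD factors.
Acta2: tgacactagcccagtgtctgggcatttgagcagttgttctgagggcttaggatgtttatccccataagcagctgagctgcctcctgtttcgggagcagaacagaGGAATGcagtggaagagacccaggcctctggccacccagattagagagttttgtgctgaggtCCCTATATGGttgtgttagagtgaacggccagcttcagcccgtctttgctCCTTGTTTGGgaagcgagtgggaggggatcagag
Lmod1: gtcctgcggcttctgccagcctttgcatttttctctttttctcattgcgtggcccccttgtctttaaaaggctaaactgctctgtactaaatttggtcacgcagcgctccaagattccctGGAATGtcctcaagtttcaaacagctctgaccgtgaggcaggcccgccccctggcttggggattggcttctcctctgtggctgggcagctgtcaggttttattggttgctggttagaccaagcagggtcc
Palld: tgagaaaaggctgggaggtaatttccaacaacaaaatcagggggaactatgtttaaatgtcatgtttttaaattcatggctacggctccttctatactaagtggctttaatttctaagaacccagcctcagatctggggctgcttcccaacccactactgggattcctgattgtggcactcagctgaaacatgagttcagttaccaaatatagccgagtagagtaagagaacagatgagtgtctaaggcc

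Acta2 held a pair of such CArG boxes, whose first bases lay 84 and 34 bases before the start, and GGAATG at 146. Lmod1 held GGAATG at 130. The Palld run held no match, while its middle start, not printed, held CATTCC at 87, as did Mylk at 158. No window of the 6 genes held an exact CArG box. Across 32851 promoters in the table, searched on both strands over the same length, 1.47% held an exact CArG box, 7.24% one with a single G or C, and 12.64% the 6-base element. A match is a match of letters, and these windows leave out the rest of each gene.

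Pooled over the 6 libraries, most UMIs of 7 of the 9 genes lay in mural nuclei. Mural nuclei made up 3.80% of all nuclei but held 95.8% of the Myh11 UMIs, 95.03% of Lmod1, 91.9% of Myocd, 86.4% of Synpo2, 72.0% of Acta2 and 58.6% of Tagln. They held 35.8% of the Mylk UMIs and 3.09% of those of Palld. Fibrogenic nuclei, 10.9% of all, held 0.390% of the Myh11 UMIs, 10.99% of Acta2, 11.4% of Tagln, 3.51% of Mylk and 42.9% of Palld. Cnn1, which encodes the actin-binding protein calponin 1, was rare, with 45 UMIs in all, 30 in mural and 8 in fibrogenic nuclei. These pooled shares hide a change with time, since uninjured libraries had few fibrogenic nuclei and most of the Acta2 UMIs. Before injury mural nuclei held 94.1% and 94.4% of the Acta2 UMIs and 71.5% and 70.9% of those of Tagln. At day 5 they held 22.2% of Acta2 and 14.4% of Tagln, and fibrogenic nuclei, 17.2% of that library, held 50.8% and 59.2%. At day 7 both populations held 34.4% of the 32 Acta2 UMIs, with fibrogenic nuclei 17.7% of the library. Myh11 UMIs were still mostly mural, with 85.2% at day 5 and 69.2% at day 7.

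**Figure D1:**
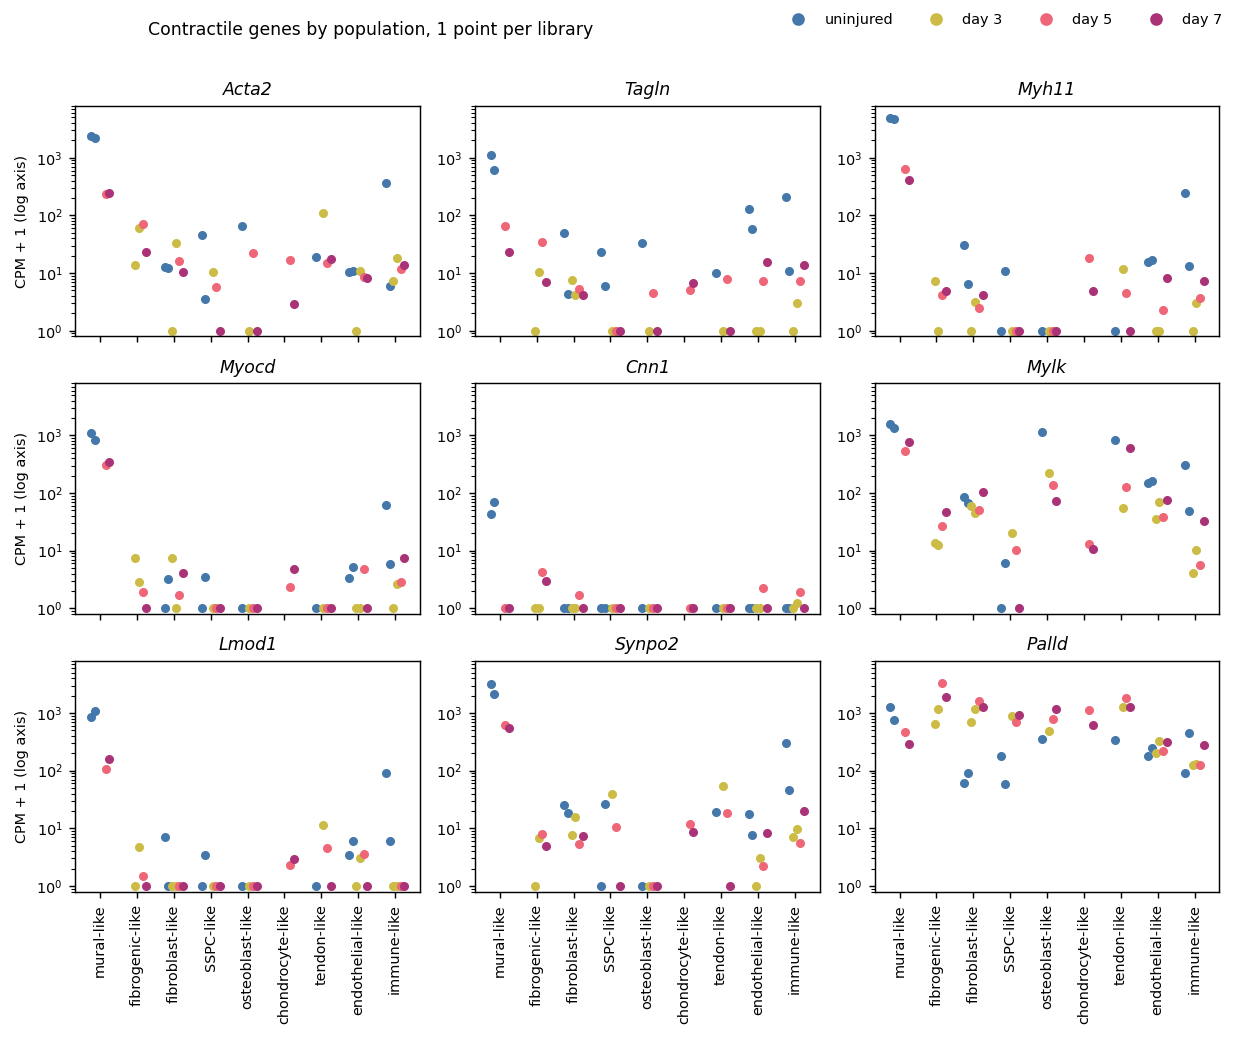
Level of each of the 9 genes (CPM + 1, logarithmic axis) by population, with 1 point for each library that had at least 10 nuclei of it. Mural nuclei are highest for Acta2, Myh11, Myocd, Lmod1 and Synpo2, and Palld has its highest point in fibrogenic nuclei of day 5.

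In uninjured mural nuclei the actin gene Acta2 stood at 2367 CPM (2136 to 2615) in replicate 1 and 2241 CPM (2083 to 2408) in replicate 2. After fracture it stood at 899 CPM on the 9 nuclei of day 3 replicate 2, 236 CPM (182 to 300) at day 5 and 248 CPM (124 to 443) at day 7. Both uninjured libraries lay above all later ones, and their intervals did not overlap with those of days 5 and 7. The heavy chain Myh11 went from 4986 and 4749 CPM to 1446, 636 and 406 CPM in the same order. Tagln, which encodes the actin-binding protein transgelin, went from 1128 and 620 CPM to 169, 64.3 and 22.5 CPM, the last from 1 UMI.

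The regulator and the filament proteins followed with smaller steps. Myocd stood at 1103 and 830 CPM in uninjured mural nuclei, 104 CPM at day 3, 307 CPM at day 5 and 338 CPM at day 7. Lmod1 stood at 844 and 1073 CPM, then 300, 107 and 158 CPM. Synpo2, which encodes the Z-disc and stress fibre protein synaptopodin 2, stood at 3125 and 2172 CPM, then 925, 625 and 541 CPM. For these genes too, both uninjured libraries lay above every later one. Cnn1 had 7 and 23 UMIs in the uninjured libraries (43.1 and 68.9 CPM) and 0 in mural nuclei of days 3, 5 and 7, which at day 5 allows a level of up to 10.7 CPM (3 counts).

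The kinase gene Mylk and Palld changed least in mural nuclei. Mylk stood at 1602 and 1360 CPM before injury and at 873, 543 and 766 CPM after it. Palld stood at 1257 and 761 CPM, then 443, 475 and 293 CPM. The groups did not overlap, but the uninjured replicates of Palld were further apart than the lower of them was from any later library.

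**Figure D2:**
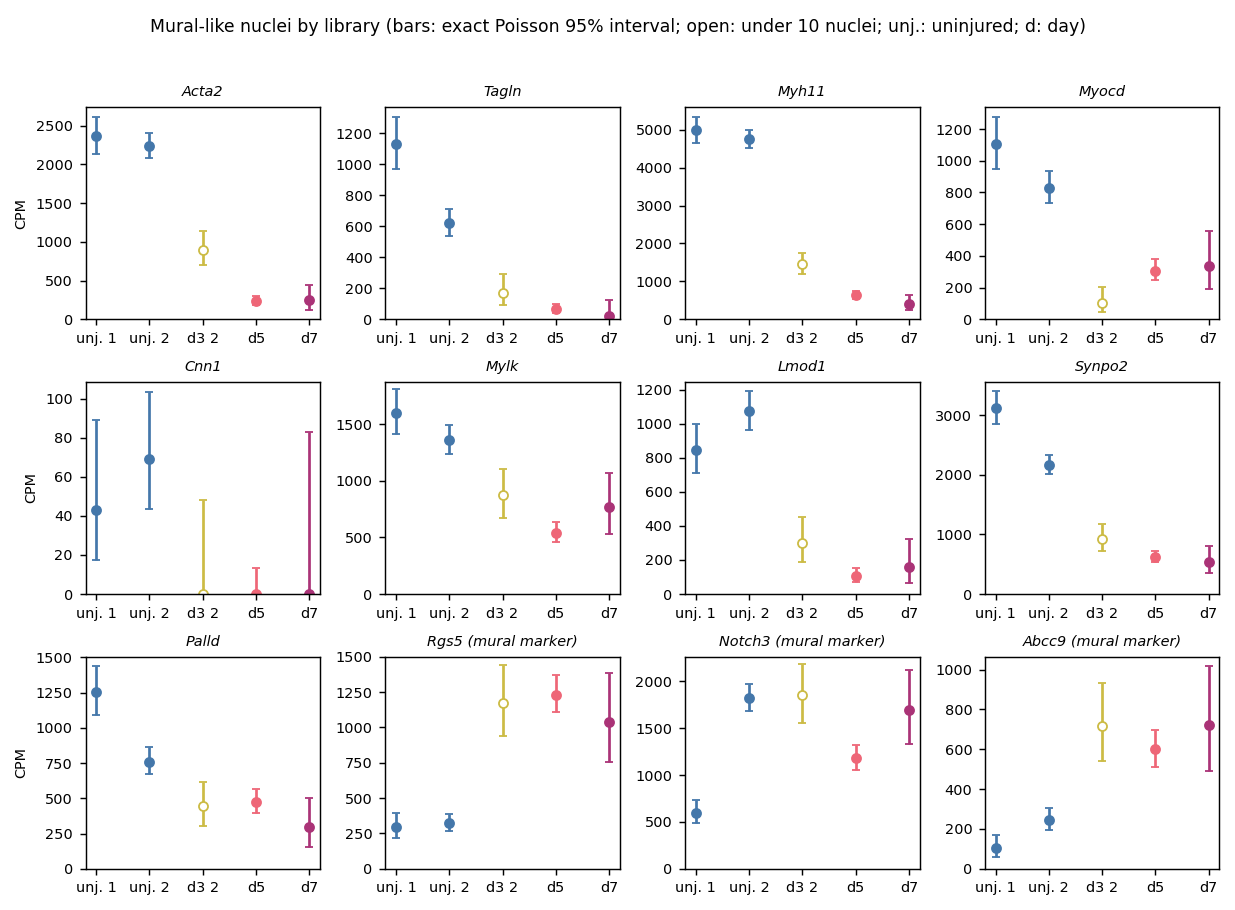
Level of the 9 genes and of the mural markers Rgs5, Notch3 and Abcc9 in mural nuclei (CPM, linear axes) by library, with exact 95% Poisson intervals as bars and an open symbol for day 3 replicate 2, which had 9 nuclei. Acta2 goes from 2367 and 2241 CPM in the uninjured libraries to 236 and 248 CPM at days 5 and 7.

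Day 3 had too few mural nuclei for a test, so days 5 and 7 together were set against the uninjured libraries, a comparison added after the data were seen. It treats days 5 and 7 as replicates of a later time. Across 4092 genes, 14.2% were called by edgeR's quasi-likelihood test at an adjusted p under 0.05, and 7.53% were called lower. Of the 9 genes, 8 passed the filter on low counts, which a gene can pass through its higher group alone, and each of them fell; Cnn1 did not pass it. Acta2 had a log2 fold change of -3.44 (SE 0.42, adjusted p = 0.000981), Tagln -4.19 (SE 0.56, adjusted p = 0.00138), Myh11 -3.37 (SE 0.43, adjusted p = 0.00123), Lmod1 -3.14 (adjusted p = 0.00154), Synpo2 -2.36 (adjusted p = 0.00465) and Myocd -1.79 (adjusted p = 0.0142). Tagln had 183 and 207 UMIs in uninjured mural nuclei but 18 at day 5 and 1 at day 7. It could thus pass the filter through the uninjured libraries alone, so its call is no support. Mylk, with -1.39 (adjusted p = 0.0390), and Palld, with -1.53 (adjusted p = 0.0411), were nearest to the threshold, and each missed it in 4 of 10 alternative settings. Without the day 5 library only 26 genes were called and none of the 8, whose adjusted p then ran from 0.0612 to 0.360. Within the 3 libraries of Cell Ranger 6.0.0, uninjured replicate 1, day 5 and day 7, Acta2 stood at 2367, 236 and 248 CPM.

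Of a list of 18 other contractile genes, 16 were tested in mural nuclei. Of these 13 were called lower and none higher, with a median log2 fold change of -2.70 against -0.04 over all genes. Ryr2, a calcium release channel, stood at 1880 CPM before injury and 70.2 CPM later on average, and Smtn, which encodes the smooth muscle protein smoothelin, at 578 and 38.1 CPM. A gene of this list could pass the filter through the uninjured libraries alone, so these calls are given as a description and are no support. Of 16 non-muscle counterparts, 14 were tested and 4 fell, among them Flna (filamin A, -3.31) and Tpm1 (tropomyosin 1, -3.14). In the SRF pathway list, 12 genes were tested, Tead1 rose (1.301) and Fhl1 fell (-3.10). Of the matrix and myofibroblast list 11 were tested, and 8 were called higher and none lower. The metalloprotease gene Adam12 stood at 5.99 CPM before injury and 1129 CPM later on average, and the transcription factor gene Runx1 at 19.5 and 1007 CPM. Both passed the filter through the later libraries alone, so that their calls are no support.

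Other values changed in mural nuclei at the same time, and their part in the fall was not tested. The dystrophin gene Dmd, on the skeletal muscle list but also used by smooth muscle, stood at 17656 and 11571 CPM in uninjured mural nuclei and at 2051 and 1892 CPM at days 5 and 7. The other 11 skeletal muscle genes summed to 468 and 647 CPM before injury, with 10 and 11 of them detected, and to 139 and 315 CPM at days 5 and 7, with 7 of 11 detected at each. The nuclei set aside as skeletal muscle held little Acta2 (24.8 and 4.46 CPM in the uninjured libraries), Myh11 (7.08 and 3.47 CPM) or Tagln (15.9 and 3.97 CPM), and held 1188 and 1624 CPM of Palld. The mural markers themselves shifted, though not all in the same direction. The pericyte gene Rgs5 went from 296 and 324 CPM to 1233 and 1036 CPM at days 5 and 7, and the 8 markers together from 1861 and 3407 to 3987 and 4754 CPM. Of 4 subclusters of mural nuclei, the one highest in Acta2 (2504 CPM, Rgs5 101 CPM) had 99 of its 100 nuclei from uninjured periosteum. A subcluster with 228 CPM of Acta2 and 1325 CPM of Rgs5 had 45 of 77 nuclei from day 5, 25 from day 7 and 2 from uninjured periosteum. Of the 8 markers, Mcam (560 and 199 CPM) and Cspg4 (201 and 128 CPM) were lower in this subcluster than in the first, and the rest were higher. Another subcluster, led by genes of dividing cells such as Top2a and Tpx2, had 24 of 33 nuclei from day 5, 6 from day 7 and 0 from uninjured periosteum. At day 5 it held 142461 UMIs, beside 126899 in the 45 nuclei of the subcluster with 1325 CPM of Rgs5. Their day 5 levels were 218 and 221 CPM of Acta2, 323 and 867 CPM of Myh11, and 611 and 268 CPM of Palld. A lower level per cell and a change in which mural cells were caught cannot be told apart with these few nuclei.

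Fibrogenic nuclei held Acta2 at 12.8 CPM (1.55 to 46.3, 2 UMIs) and 58.6 CPM (39.8 to 83.1, 31 UMIs) in day 3 replicates 1 and 2, at 69.5 CPM (58.8 to 81.5, 151 UMIs) at day 5 and at 21.7 CPM (10.9 to 38.9, 11 UMIs) at day 7. The mean over these 4 libraries was 40.6 ± 27.6 CPM (SD, n = 4). In day 3 replicate 2, 1 nucleus gave 16 of the 31 UMIs, and the level without it was 29.3 CPM; that nucleus was also marked as a likely doublet. At day 5, leaving out the nucleus with the most Acta2 UMIs (13) moved the level to 63.7 CPM. Of the 686 nuclei, 580 had no Acta2 UMI. For comparison, endothelial nuclei, which should lack smooth muscle actin, gave 0 to 10.0 CPM of Acta2 in the 6 libraries. Immune nuclei gave 4.99 to 17.2 CPM in all libraries but uninjured replicate 1, with 361 CPM. There 4 of 43 nuclei held 2 or more contractile genes. These had no UMI of Ptprc or Dock2, but of the other 39 only 3 had a Ptprc UMI and 3 a Dock2 UMI, so this does not set the 4 apart.

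Myh11, Myocd, Cnn1, Lmod1 and Synpo2 were rare in fibrogenic nuclei, with 15 UMIs or fewer of each in any library. Tagln reached 74 UMIs at day 5, and Mylk 57 at day 5 and 23 at day 7. Tagln had 0, 9.44, 34.0 and 5.93 CPM in day 3 replicates 1 and 2, day 5 and day 7. Myh11 had 6.41, 0, 3.22 and 3.95 CPM, from 10 UMIs in the 4 libraries. Myocd had 6.41, 1.89, 0.92 and 0 CPM, and Lmod1 0, 3.78, 0.46 and 0 CPM. Cnn1 had 0, 0, 3.22 and 1.98 CPM, and Synpo2 0, 5.67, 6.90 and 3.95 CPM. Mylk had 12.8, 11.3, 26.2 and 45.5 CPM. Tagln was highest at day 5, the library that also held the most Acta2.

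Fibrogenic nuclei were set against mural nuclei of the same library at days 5 and 7, the times with at least 10 nuclei of both. Of 5928 genes, 17.6% were called, 8.33% lower and 9.23% higher in fibrogenic nuclei. Of the 8 contractile genes tested, again without Cnn1, 6 were lower and 1 was higher. The log2 fold change was -2.12 for Acta2 (SE 0.38, adjusted p = 1.48e-05) and -4.19 for Mylk (SE 0.32, adjusted p = 2.68e-15). Myh11, Synpo2, Lmod1 and Myocd were the other genes among the 6 called lower. Fibrogenic nuclei held few UMIs of them, and they passed the filter through mural nuclei alone. Their fitted folds are drawn in the plot of log2 fold changes but not given as numbers, and nothing is read from their calls. By counts at day 5, 7 UMIs in fibrogenic nuclei put the mural level of Myh11 at 197 times the fibrogenic one (93.9 to 498). For Synpo2 it was 90.6 times (53.4 to 165) from 15 UMIs, for Lmod1 233 times (38.7 to 9505) from 1 UMI and for Myocd 334 times (89.7 to 2802) from 2 UMIs. For Acta2 the mural level was 3.39 times (2.502 to 4.56) the fibrogenic one at day 5 and 11.4 times (4.48 to 29.0) at day 7, and for Tagln 1.89 times (1.06 to 3.19) at day 5. Tagln, with -0.98 (SE 0.64, adjusted p = 0.385), did not pass the test. Over 9 alternative settings, 1 of which gave no test, its log2 fold change ran from -3.26 to -0.85, and it was called in 2 of them (adjusted p down to 0.000693). Palld was higher in fibrogenic nuclei by 2.81 (SE 0.30, adjusted p = 8.14e-11). Of 15 alternative settings 2 gave no test, and the call was lost in 8 (log2 fold change down to 0.48, adjusted p up to 0.909), all of which brought in uninjured libraries. There mural nuclei, with 1257 and 761 CPM of Palld, stood above the 6 and 5 fibrogenic nuclei, with 554 and 625 CPM. This fit had 1 residual degree of freedom, and the mural level it rests on is the lower one after fracture: the fibrogenic Acta2 level at day 5 was 69.5 CPM beside 236 CPM in mural nuclei of day 5 and 2367 and 2241 CPM in those of uninjured periosteum.

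Of the other contractile genes, 12 were tested here, 6 were called lower in fibrogenic nuclei and none higher. Of those named by the rule, the integrin gene Itga8 stood at 174 CPM in mural and 5.04 CPM in fibrogenic nuclei and Pdlim3 at 81.5 and 7.77 CPM, so that both passed the filter through mural nuclei alone and their calls are no support. Of the matrix and myofibroblast list 10 of 15 were called higher and 1 lower. Itga11, a collagen receptor subunit, stood at 27.3 CPM in mural and 386 CPM in fibrogenic nuclei and Cthrc1 at 30.4 and 289 CPM. Thy1, the gene called lower, stood at 87.9 and 6.97 CPM. Thy1 passed the filter through mural nuclei alone and the other pair could pass it through fibrogenic nuclei, so nothing is read from these calls. Non-muscle counterparts were mixed, with 2 of 15 higher (Myh10 1.70, Cnn3 1.19) and 1 lower (Lpp -0.85). The SRF pathway list had 1 of 12 higher (Fhl2 1.17) and 3 lower, among them Mkl2 (-1.13) and Rock1 (-0.95). The medians were -1.50 for the other contractile genes, 1.68 for the matrix list and 0.06 over all genes tested.

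**Figure D3:**
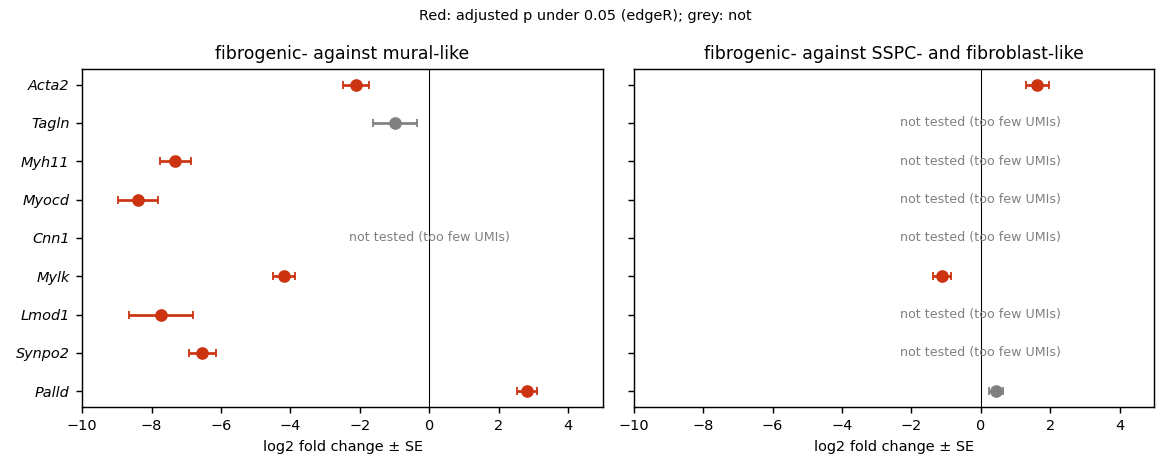
Log2 fold change of each tested gene in fibrogenic nuclei, against mural nuclei of the same library (days 5 and 7) and against SSPC and fibroblast nuclei of the same library (days 3, 5 and 7), with its standard error as bars. Acta2 lies at -2.12 against mural and at 1.62 against SSPC and fibroblast nuclei, and the points of Myh11, Synpo2, Lmod1 and Myocd against mural nuclei rest on few fibrogenic UMIs.

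Set against skeletal stem/progenitor cells (SSPCs) and fibroblasts of the same library, in 4 libraries of days 3, 5 and 7, 10.7% of 6831 genes were called, 3.98% higher and 6.70% lower in fibrogenic nuclei. Of the 9 genes only Acta2, Mylk and Palld passed the filter on low counts: 1 was higher and 1 lower. Acta2 was higher in fibrogenic nuclei, at 40.6 against 12.9 CPM on average, with a log2 fold change of 1.62 (SE 0.33, adjusted p = 0.00671). With nuclei marked as doublets removed it was 1.34 (adjusted p = 0.0783). Acta2 was tested in only 7 of 12 alternative settings, and dropped out without day 3 replicate 2 and without day 5, among others. The 7 include the fit without a filter and the fit with at least 20 nuclei, which used the same libraries as the main one. The summed level of the 8 mural markers was 186, 147, 144 and 247 CPM in fibrogenic nuclei of day 3 replicates 1 and 2, day 5 and day 7, and 198, 173, 148 and 160 CPM in SSPC and fibroblast nuclei. It was therefore not higher in fibrogenic nuclei in 3 of the 4 libraries. The summed level of 6 immune markers was higher in fibrogenic nuclei in 3 of them, with 276, 725, 159 and 25.7 CPM in the same order beside 227, 359, 95.1 and 30.6 CPM, and its part in the Acta2 difference was not tested. Tendon-like nuclei held as much Acta2 on average, 40.1 ± 47.5 CPM (SD, n = 4), with 111 CPM in day 3 replicate 2. Mylk was lower, with -1.13 (SE 0.26, adjusted p = 0.0145), and lost its call in 4 of 12 settings, without day 5 among them (adjusted p = 0.0635). Palld was at 0.43 (SE 0.20, adjusted p = 0.224).

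Some actin-related genes were also higher in fibrogenic than in SSPC and fibroblast nuclei. Of the non-muscle counterparts 4 of 16 were higher and none lower: Vcl (vinculin, 1.19), Zyx (zyxin, 0.91), Myh9 and Actn1. The last pair are named outside the rule for named genes. Among other contractile genes Csrp1 was higher (1.35) of 7 tested. None of 12 SRF pathway genes was called. Of the matrix and myofibroblast list 5 of 16 were higher, led by Tnc (tenascin C, 1.69) and Tgfb1 (1.27), and 2 lower, Fap (-1.24) and Cdh11 (-1.22). The list medians were 0.45 for non-muscle counterparts and 0.26 for the matrix list, beside 0.01 over all genes.

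Read nucleus by nucleus, the share with an Acta2 UMI depends on depth, so each nucleus was thinned to 500 UMIs. The share was then 0 of 37 fibrogenic nuclei in day 3 replicate 1 (which allows up to 8.11%), 3.80% (0.790 to 10.7) in replicate 2, 4.14% (2.34 to 6.74) at day 5 and 2.03% (0.556 to 5.12) at day 7. In mural nuclei it was 59.3% and 57.8% before injury, 12.3% (5.80 to 22.1) at day 5 and 9.38% (1.98 to 25.02) at day 7. Endothelial nuclei had Acta2 in at most 1.15%. Median depth before thinning was 5073.5 UMIs in fibrogenic and 2295.5 in endothelial nuclei of day 5. The mural share was above the fibrogenic one at day 5 and at day 7, and at both times their intervals overlapped.

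Co-detection in the same nucleus was counted over 6 of the genes (Acta2, Tagln, Myh11, Myocd, Cnn1, Lmod1), with all UMIs. Nuclei with 2 or more of them made up 93.2% and 98.4% of mural nuclei in the uninjured libraries, 35.6% at day 5 and 18.8% at day 7. In fibrogenic nuclei they were 0 of 37 and 1 of 79 at day 3, 29 of 362 (8.01%) at day 5 and 0 of 197 at day 7. At day 5 the share was 0.389% in fibroblasts and 0.417% in endothelial nuclei. Thinned to 500 UMIs, no fibrogenic nucleus held 2 of the genes, which at day 5 allows up to 0.829%.

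**Figure D4:**
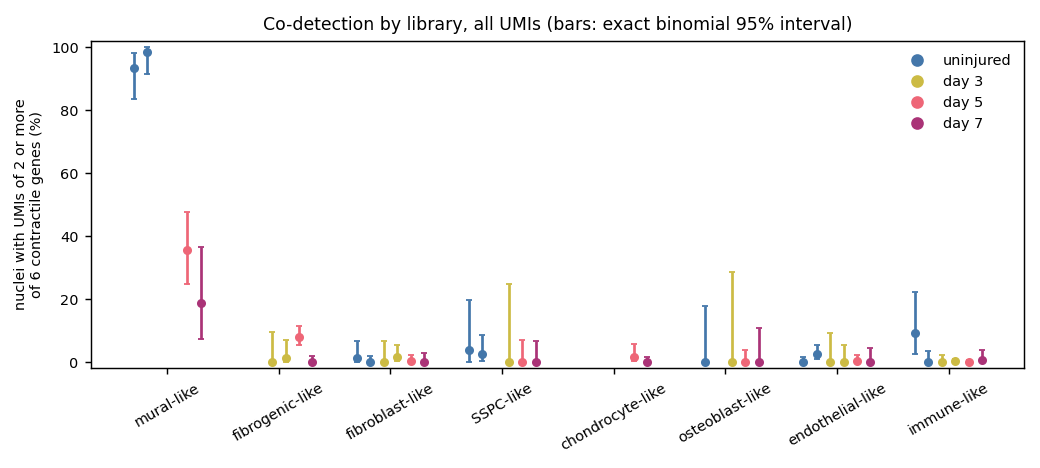
Share of nuclei (percent) with 2 or more of 6 contractile genes by population and library, with all UMIs and exact 95% binomial intervals as bars. Uninjured mural nuclei reach 93.2% and 98.4%, and fibrogenic nuclei reach 8.01% at day 5.

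The fibrogenic nuclei with 2 or more of the genes were 31, counting 1 among the 11 of uninjured periosteum. Of these, 24 paired Acta2 with Tagln, 5 Acta2 with Cnn1 and 4 Tagln with Cnn1, and Acta2 with Myh11, Acta2 with Lmod1, Tagln with Myh11 and Myh11 with Myocd were paired in 1 each (a nucleus with 3 genes counts in more than 1 pair). The 29 of day 5 held 225 CPM of Acta2, 158 CPM of Tagln and 25.01 CPM of Cnn1. They held no UMI of the mural genes Rgs5 and Abcc9 and 25.01 CPM of Notch3, beside 24.8 CPM in the other 333 fibrogenic nuclei of day 5. Their Postn level was 6644 CPM, beside 4452 CPM in the others. Myh11 stood at 16.7 CPM in the 29, from 4 UMIs in 2 nuclei, beside 1.55 CPM from 3 UMIs in the others. The mural gene Cspg4 stood at 16.7 beside 14.0 CPM, Pdgfrb at 66.7 beside 87.9 CPM and Mcam at 8.34 beside 11.4 CPM. Mural nuclei of day 5 with 2 or more of the genes held 1218 CPM of Rgs5 and 1142 CPM of Notch3. The 29 nuclei were deeper, with a median of 7106 UMIs against 4975. Their 2 genes chose them, so the Acta2, Tagln, Cnn1 and Myh11 levels are a description. Of the 31, 4 were marked as likely doublets, as were 60 of all 686 fibrogenic nuclei.

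Split by Acta2 alone, 86 fibrogenic nuclei of day 5 had at least 1 UMI of it and 276 had none. Those with Acta2 held 57.1 CPM of Tagln (40.001 to 79.1) against 24.6 CPM (17.4 to 33.8), and 338 CPM of Tpm1 (294 to 386) against 178 CPM (158 to 201). They held 1.59 CPM of Myh11 against 3.89 CPM, 1.59 CPM of Rgs5 against 7.13 CPM and 11.1 CPM of Notch3 against 30.5 CPM. In that library Tagln and Tpm1 were thus higher beside Acta2, and Myh11 and the 2 mural markers were not. Their median depth was 6740 UMIs with Acta2 and 4780 without. At day 7 only 9 nuclei had Acta2, and there Notch3 stood at 179 CPM (58.2 to 418, 5 UMIs) against 43.9 CPM. Tagln and Tpm1 had no UMI there, beside 197 CPM of Tpm1 in the nuclei without Acta2. In day 3 replicate 2 all 5 Tagln UMIs of fibrogenic nuclei lay in the nucleus with 16 Acta2 UMIs. The levels are a description, since cells of a library are not replicates.

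Palld behaved unlike the rest. In fibroblasts it stood at 59.9 and 88.4 CPM in the uninjured libraries, 704 and 1152 CPM at day 3, 1614 CPM at day 5 and 1264 CPM at day 7. In fibrogenic nuclei it stood at 641 CPM (522 to 780) and 1164 CPM (1073 to 1259) at day 3, 3297 CPM (3221 to 3374) at day 5 and 1870 CPM (1753 to 1993) at day 7. The 11 fibrogenic nuclei of the uninjured libraries gave 554 and 625 CPM from 3 and 14 UMIs. Both populations were highest at day 5, and every fibroblast library after fracture lay above both uninjured ones. Endothelial nuclei stayed between 179 and 321 CPM over all 6 libraries.

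**Figure D5:**
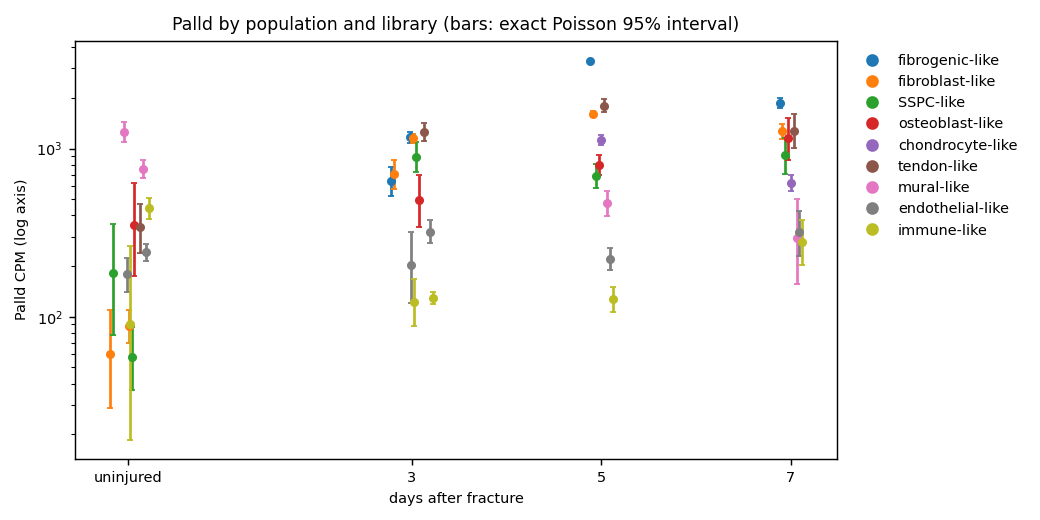
Level of Palld (CPM, logarithmic axis) by day and library in fibrogenic, fibroblast, SSPC, osteoblast, chondrocyte, tendon, mural, endothelial and immune nuclei, with exact 95% Poisson intervals as bars. Fibroblasts go from 59.9 and 88.4 CPM in uninjured periosteum to 1614 CPM at day 5, while mural nuclei go from 1257 and 761 CPM to 475 CPM.

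Over all stromal nuclei (SSPC, fibroblast, fibrogenic, osteoblast and chondrocyte) Palld was at 93.9 and 93.8 CPM in the uninjured libraries and at 637 and 1103 CPM at day 3. In the test of day 3 against uninjured, 10.5% of 9477 genes were called, 4.27% higher and 6.26% lower. Of the 9 genes Acta2, Mylk, Synpo2 and Palld were tested and 1 was called: Palld rose by a log2 fold change of 3.10 (SE 0.38, adjusted p = 0.00125). It was called in each of 11 alternative settings. The stromal class did not have the same makeup in both groups, since 6 and 5 of its nuclei were fibrogenic before injury and 37 and 79 at day 3, and this enters the fold. In SSPC and fibroblast nuclei alone Palld stood at 85.3 and 79.0 CPM before injury and at 640 and 1127 CPM at day 3. Uninjured replicate 2 and both day 3 libraries share a Cell Ranger version, and among them the stromal levels were 93.8, 637 and 1103 CPM. Acta2 stood at 26.8 and 9.52 CPM before injury and 5.95 and 37.3 CPM at day 3 (log2 fold change 0.59, SE 0.82, adjusted p = 0.753), so the groups overlapped. Mylk was at -1.27 (adjusted p = 0.0932) and Synpo2 at -1.05 (adjusted p = 0.401). The skeletal muscle list fell in 5 of 11 tested genes, Ckm (62.1 CPM before injury and 5.04 CPM at day 3 on average) and Myh1 (96.7 and 12.5 CPM) among them, which could pass the filter through the uninjured libraries alone, and its summed level without Dmd in stromal nuclei was 903 and 880 CPM before injury and 304 and 427 CPM at day 3. The nuclei set aside as skeletal muscle held 1188 and 1624 CPM of Palld in the uninjured libraries, and the part of muscle RNA in these values was not tested.

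In those stromal nuclei 7 of 17 tested genes of the matrix and myofibroblast list were called higher and none lower. Cthrc1, with 12.2 CPM before injury and 216 CPM at day 3 on average, could pass the filter through day 3 alone, so its call is no support. Of the non-muscle counterparts 2 of 16 rose, Actn1 (alpha-actinin 1, 1.97) and Myh9 (non-muscle myosin heavy chain, 1.68). Of the other contractile genes none of 10 rose. In the SRF pathway list Fhl1 fell (-2.80), and Cyr61, called higher, stood at 12.5 and 141 CPM, to which the same limit applies. The median log2 fold changes were 1.32 for the matrix list, 0.72 for the non-muscle counterparts, -0.83 for the other contractile genes and -0.01 over all 9477 genes.

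Whether the later change differed between mural and stromal nuclei was tested with an interaction term, over the uninjured libraries and days 5 and 7, also added after the data were seen. Of 6588 genes 9.11% were called, 4.64% with a higher and 4.46% with a lower change in mural nuclei, with 4 of the 9 genes among these, Cnn1 included. The difference in log2 fold change was -5.78 for Palld (SE 0.50, adjusted p = 3.05e-09), -4.41 for Acta2 (SE 0.65, adjusted p = 1.88e-05) and -4.29 for Tagln (SE 0.72, adjusted p = 0.000117). The stromal class changed in makeup, from 6 and 5 fibrogenic and 2 and 2 chondrocyte nuclei before injury to 362 and 197 fibrogenic and 125 and 221 chondrocyte nuclei at days 5 and 7, and this enters these differences. In SSPC and fibroblast nuclei alone Palld stood at 85.3 and 79.0 CPM before injury and at 1489.5 and 1199 CPM at days 5 and 7. Cnn1 also passed the threshold (adjusted p = 0.0258), but it had 0 UMIs in later mural nuclei and passed the filter through uninjured mural nuclei. It lost its call in 5 of 9 settings, so no difference is read from it. Tagln had 183 and 207 UMIs in uninjured mural nuclei but 18 at day 5 and 1 at day 7. It could thus pass the filter through uninjured mural nuclei, and it lost its call in 1 of 9 settings, so its call is no support. Myh11 was at -1.89 (SE 0.68, adjusted p = 0.0828). It was called in 3 of 9 alternative settings (adjusted p = 0.0117 to 0.692 over all of them) and ran from -2.59 to -0.83 with each library left out. Mylk, Myocd, Lmod1 and Synpo2 had an adjusted p from 0.673 to 0.959. Other contractile genes had a lower change in mural nuclei in 10 of 17 tested, led by Ryr2 (-4.63) and Itga8 (-4.49), and non-muscle counterparts in 7 of 16, led by Tpm1 (-3.59) and Cnn2 (-3.06). A gene of the other contractile list could pass the filter through uninjured mural nuclei alone. Ryr2, for one, stood at 1880 CPM there and 70.2 CPM in later mural nuclei, so the calls of that list are a description and no support.

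Mylk was the least restricted of the muscle genes after Palld. Outside mural nuclei it stood at 1142 CPM in 19 osteoblast-like nuclei and 827 CPM in 20 tendon-like nuclei of uninjured replicate 2, and at 606 CPM in tendon-like nuclei of day 7. A cluster of 409 nuclei that took no name, led by Pdzrn4, Fat3 and Tnn, held 1887 CPM in uninjured replicate 2, 769 CPM in day 3 replicate 1 and 60.1 to 173 CPM in day 3 replicate 2, day 5 and day 7. Endothelial nuclei held 148 and 158 CPM before injury and 33.8 to 73.7 CPM after it. In all, 3 antisense transcripts overlap the gene, and whether the counting told strands apart was not given in the sources used here.

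Tagln was seen in endothelial nuclei too, at 129 and 57.5 CPM in the uninjured libraries and at 0 to 14.7 CPM in the later ones. Endothelial Acta2 in the same libraries was 9.56 and 10.0 CPM. The Tagln gene (chr9:45929619-45936058, mm10, minus strand) overlaps Pcsk7 on the opposite strand.

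Across 56 sums per library and population the genes fell into groups by how alike their log2(CPM + 10) values were. These correlations are across populations that share libraries and depth, and are given as a description. Myh11 and Lmod1 had a Pearson r of 0.975, and Cacna1h and Slc38a11 came next for both (0.946 and 0.941 with Myh11, 0.966 and 0.956 with Lmod1). Myocd was nearest to Lmod1 (0.945), Cacna1h (0.937) and Myh11 (0.936), and Synpo2 to Lmod1 (0.927), Myh11 (0.917) and Cacna1h (0.876). Acta2 was nearest to Lmod1 (0.855), Stum (0.839) and Cacna1h (0.835), and Tagln to Slc8a2 (0.819), Myh11 (0.794) and Lmod1 (0.785). Cnn1 was nearest to Kcnt1 (0.925), Trpv1 (0.924) and P2rx1 (0.917), and Mylk to Ccdc68 (0.671), Pawr (0.661) and Tbx3os1 (0.660). Palld was nearest to Pdgfrl (0.811), Kcnma1 (0.801) and Col12a1 (0.794), a collagen of the matrix list, and had r from -0.08 to 0.28 with the other 8 genes.

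In the mm10 annotation Acta2 spans chr19:34241090-34255590 on the minus strand, Myh11 chr16:14194535-14291372 (minus), Myocd chr11:65176561-65269989 (minus), Cnn1 chr9:22099216-22109630 (plus), Mylk chr16:34745210-35002420 (plus), Lmod1 chr1:135324807-135368065 (plus), Synpo2 chr3:123076519-123236149 (minus) and Palld chr8:61511433-61902690 (minus). Lengths run from 6.4 kb for Tagln to 391.3 kb for Palld. Reads in introns were counted, and nuclear counts of long genes draw on more intronic sequence, so each gene was compared only with itself across populations.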

How the data were processed

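Whole-number UMI counts per gene and nucleus were used as deposited in 6 matrices; the authors made them with Cell Ranger 6.0.0 (uninjured replicate 1, days 5 and 7) or 7.1.0 (uninjured replicate 2, day 3) on mm10 with introns and exons, per the file headers and the study's methods. Nuclei with 200 to 5000 genes, under 2% mitochondrial and 1.5% ribosomal counts were kept, and clusters with Neb in 80% or Pax7 in 40% of nuclei were set aside. Seurat 5.3.0 (R 4.3.3) integrated libraries and clustered at resolution 1.3, with the contractile lists left out; genes correlated with them stayed in. Doublets were kept; Scrublet (scanpy 1.11.5, Python 3.11.15) set to mark 6% per library gave an alternative, its own cutoff having marked 0.645%.

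Counts were summed per library and population (at least 10 nuclei) and tested with edgeR 4.0.16 (filterByExpr, TMM, quasi-likelihood, Benjamini-Hochberg adjusted p under 0.05); DESeq2 1.42.0 was an alternative. Comparisons of populations held the library as a block. On simulated counts with a log2 change of 3 the test recovered 93.0% of changed genes for day 3 against uninjured, 98.9% for fibrogenic against mural and 100% for fibrogenic against SSPC and fibroblast nuclei. Intervals are at 95%, floors at 3 counts. The mural day 3 tests were not run, since the libraries held 2 and 9 such nuclei. The genes and lists were chosen with earlier results of these data known. Named were the 9 genes, per list the 2 called genes with the largest fold change in each direction with at least 50 CPM in the higher group, and the 3 most alike genes. In the SRF list, 13 of 17 symbols were listed. Some genes that the rule names are not reported here.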

Additional observations from a re-analysis of the deposited data

Results flagged for a closer look

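The later change, days 5 and 7 against uninjured, was called different between mural and stromal nuclei for 4 of the 9 genes. The call was by the interaction term of edgeR's quasi-likelihood test, which called 9.11% of the 6588 genes tested. The adjusted p was 3.05e-09 for Palld, 1.88e-05 for Acta2, 0.000117 for Tagln and 0.0258 for Cnn1. Cnn1 had 0 UMIs in mural nuclei of days 5 and 7 and passed the filter through uninjured mural nuclei, so no difference is read from it. Tagln had 18 and 1 UMIs in those later mural nuclei and could pass the filter in the same way, so its call is no support. Palld went from 1257 and 761 CPM to 475 and 293 CPM in mural nuclei and from 93.9 and 93.8 CPM to 2212 and 1229 CPM in stromal nuclei, so it moved in opposite directions. The stromal class held 6 and 5 fibrogenic nuclei before injury and 362 and 197 at days 5 and 7, and 2 and 2 against 125 and 221 chondrocyte nuclei, which enters these levels; in SSPC and fibroblast nuclei alone Palld went from 85.3 and 79.0 CPM to 1489.5 and 1199 CPM. Acta2 went from 2367 and 2241 CPM to 236 and 248 CPM in mural nuclei and from 26.8 and 9.52 CPM to 39.8 and 10.3 CPM in stromal nuclei, where the groups overlapped. Leaving out any single library kept the calls of Palld and Acta2; Tagln and Cnn1 are less certain, with an adjusted p of up to 0.0657 and 0.601 under alternatives. Groups had 2 libraries at most, too few to test a sample for standing apart from its group.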

How the results depend on the processing

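Of 346 values of the 9 genes under alternatives, 340 kept their direction, and 300 were also counted as keeping their side of the threshold. For fibrogenic against mural nuclei, leaving out day 5 or day 7 left 1 library and gave no test. Those values stand among the 300 by their direction alone. The 6 that turned were not called: Acta2 at day 3 in stromal nuclei (-0.19 with contractile genes kept among the features, -0.26 to 1.21 with each library left out), and in the interaction Mylk (0.51 without integration, 0.37 at resolution 0.8) and Myocd (-1.16 to 0.72 with each library left out, 0.17 without day 7). The cause was not tested.

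Palld, higher in fibrogenic than mural nuclei, lost its call at resolution 0.8 (adjusted p = 0.284), with contractile genes kept (adjusted p = 0.752) and with at least 5 nuclei (adjusted p = 0.470), settings that brought uninjured libraries into the fit. Over those of the 15 alternatives that gave a test, its adjusted p ran from 7.22e-21 to 0.909. In that comparison 1041 genes were called, but 481 by DESeq2, 396 at resolution 0.8, 272 with contractile genes kept and 435 with at least 5 nuclei, a setting added after seeing the data (529 without uninjured replicate 1, 506 without uninjured replicate 2, 294 without day 3 replicate 2, 238 without day 5 and 362 without day 7). In that added setting Tagln was called without uninjured replicate 1 and without day 7. No filter moved the median of all genes from 0.06 to 0.45.

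Against SSPC and fibroblast nuclei 730 genes were called, 439 by DESeq2, 1179 without the filter, 332 without integration and 210 to 821 with each library left out, the lowest without day 5. Palld was called there without integration (adjusted p = 0.0391) and with contractile genes kept (adjusted p = 0.0131). For day 3 the 998 calls became 643 to 1114. For mural nuclei 582 calls became 352 by DESeq2 and 26 to 704 with each library left out, and for the interaction 600 became 264 to 604, the lowest of both without day 5.

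The mean share of fibrogenic nuclei with an Acta2 UMI was 2.49% thinned to 500 UMIs and 10.9% without thinning, and with Palld 44.2% and 81.1%; with Palld in mural nuclei it was 20.9%, 39.2% thinned to 1000 and 53.6% without thinning. No paired analysis was possible because the labels give no numbers that link libraries of different times; replicates are numbered in accession order, and comparisons of populations held the library as a factor. Day 5 and day 7 have 1 library each, and mural nuclei at day 7 total 44387 UMIs, so that 3 counts there are 67.6 CPM.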
